A study of Homo sapiens with 5 samples.

Results

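GATA4, GATA6, HNF4A, SOX2, SOX9, CDX1, CDX2, KLF5 and FOXA2 are 9 of the 19689 human protein-coding genes examined, chosen by name because their products are transcription factors of the stomach and gut lineages. Every peak of 5 CUT&Tag libraries that touched one of these genes, or the 50 kb to each side of it, was taken on GRCh38 with the gene models of GENCODE release 44. The libraries came from SNU638, an established human gastric cancer (GC) cell line with no added treatment, grown with fetal bovine serum (the medium is DMEM in the labels and RPMI in the methods of the study), and 1 library each was made with an antibody against ACTL6A, BRG1 or NRF2 and 2 with IgG, named IgG 1 and IgG 2 here. In CUT&Tag, protein A fused to the transposase Tn5 is tethered to the antibody and cuts the DNA near its target. No antibody was replicated and the data come from a single line, so differences between libraries or genes could not be set against a replicate spread and no test was possible.

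ACTL6A is an actin-like subunit and BRG1 (SMARCA4) an ATPase of the SWI/SNF complex, which moves and evicts nucleosomes, and NRF2 is the transcription factor of the oxidative stress response, which binds antioxidant response elements (AREs). GATA4, GATA6, FOXA2 and HNF4A act in the endoderm and in the organs that form from it, SOX2 marks the foregut and stomach, and CDX1 and CDX2 specify intestine and appear in the stomach in intestinal metaplasia. SOX9 is active in progenitors of the gut epithelium, and KLF5 promotes the growth of that epithelium.

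BRG1 had the most peaks at these genes, ACTL6A fewer and NRF2 the fewest. The whole lists, whose sizes are given below, had the same order. A peak was counted at a transcription start site (TSS) when its edge lay no more than 1 kb from where a protein-coding transcript of the gene begins. BRG1 had a peak at a TSS of 6 of the 9 genes (GATA4, GATA6, SOX2, SOX9, KLF5 and FOXA2), where 63.5% of all protein-coding genes had one. ACTL6A had one at 1 gene, SOX9, where 38.5% of all genes had one. NRF2 had one at 1 gene, KLF5, where 28.1% of all genes had one. HNF4A, CDX1 and CDX2 had no peak of any antibody at a TSS. IgG 1 and IgG 2 had none at any of the 9, and peaks at a TSS of 0% and 0.152% of all genes.

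Over the gene and 50 kb to each side, the 9 genes held 41 BRG1 peaks, 20 ACTL6A peaks, 4 NRF2 peaks and 0 peaks of either IgG library. All 9 had a BRG1 peak there and all 9 an ACTL6A peak, where 90.9% and 85.3% of all protein-coding genes had one. NRF2 had a peak in the windows of 4 genes (GATA4, HNF4A, CDX2 and KLF5), where 59.1% of all genes had one. The median gene of the 9 held 4 BRG1, 2 ACTL6A and 0 NRF2 peaks, and the median of all genes was 5, 2 and 1. By these counts, the surroundings of the 9 genes held about as many BRG1 and ACTL6A peaks as those of other genes.

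**Figure D1:**
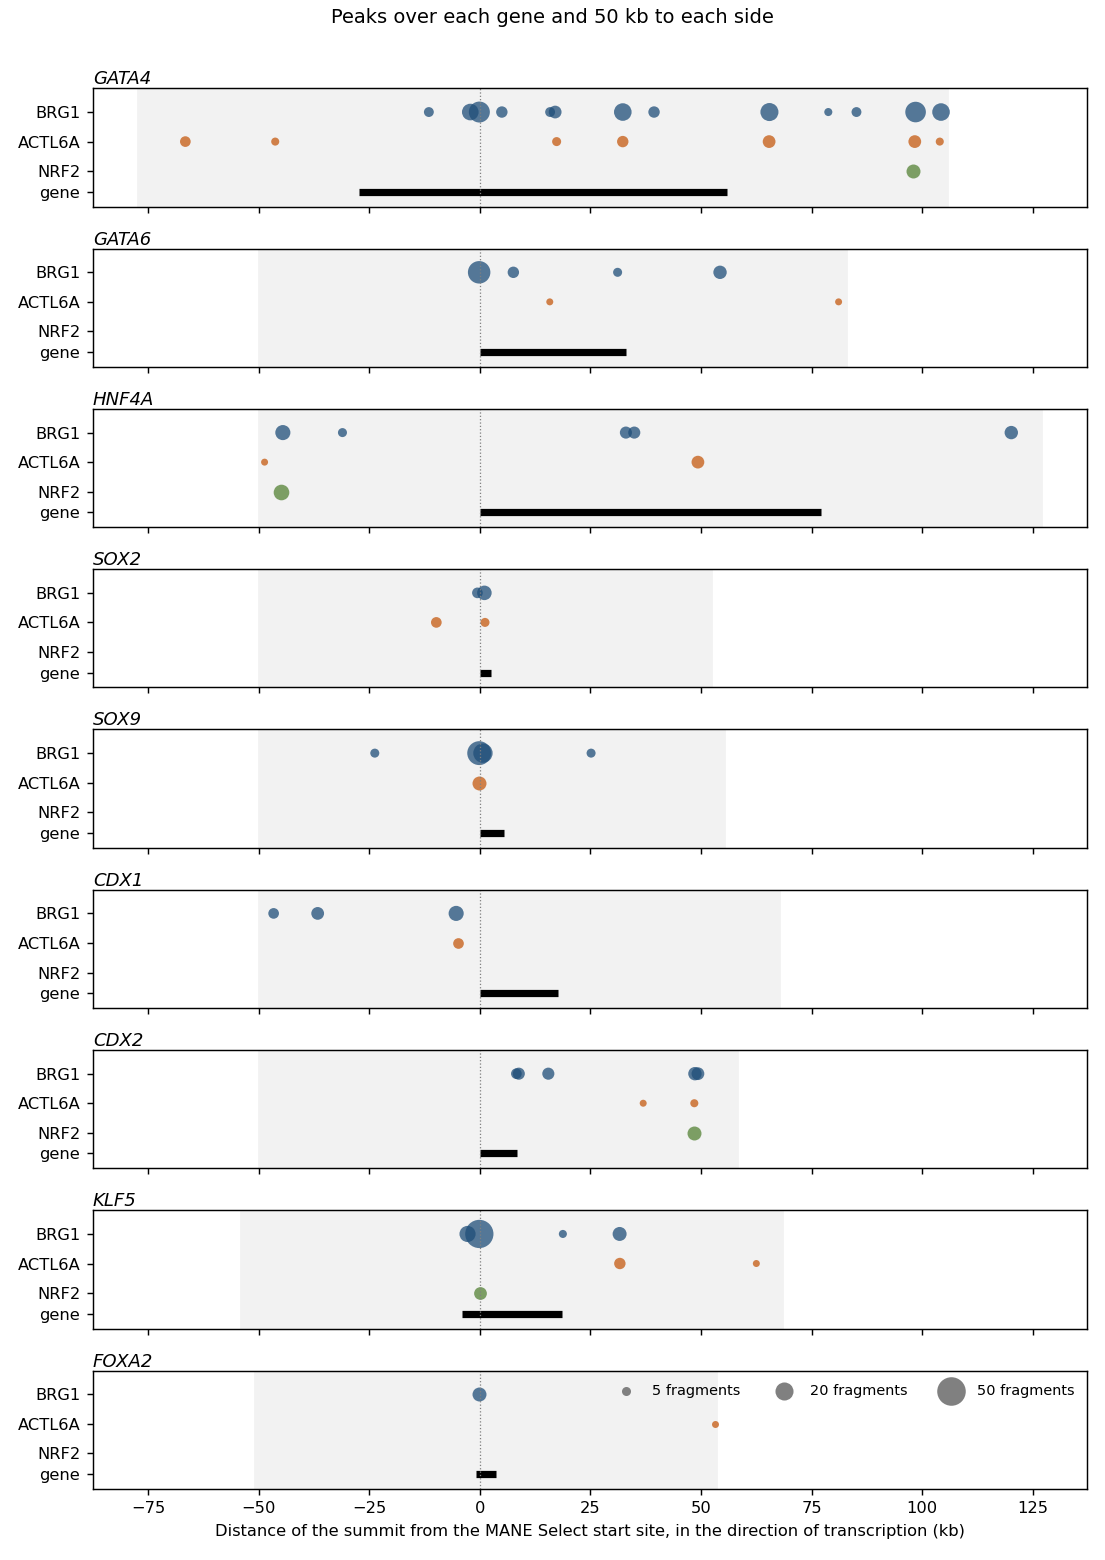
Peaks of BRG1, ACTL6A and NRF2 around the 9 genes, by the distance of the summit from the start of the MANE Select transcript in kb (negative is upstream); the dot area gives the fragments at the summit, the shaded area the gene with 50 kb to each side, and the black bar the gene. GATA4 has 13 BRG1 peaks and FOXA2 has 1, and within 1 kb of the dotted start line ACTL6A is seen at SOX9 only and NRF2 at KLF5 only, the ACTL6A dot of SOX2 being 1.17 kb past it.

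The whole lists held 23917 ACTL6A, 48793 BRG1, 9045 NRF2, 11 IgG 1 and 1746 IgG 2 peaks. The number of fragments under a summit, recovered from the values of the peak caller, had medians of 6 (ACTL6A), 10 (BRG1) and 17 (NRF2) over each list, and the lowest numbers were 3, 3 and 8. The peaks near the 9 genes were like those of their lists or lower: 3 to 12 fragments with a median of 5 for ACTL6A, 4 to 49 with a median of 10 for BRG1, and 10 to 15 with a median of 12 for NRF2. Height is given below as the -log10 q of the caller with the rank of the peak in its own list, and heights were not compared between antibodies. As a check of the labelled cell type, BRG1 lay at a TSS of all 5 epithelial markers (EPCAM, CDH1, KRT8, KRT18, KRT19). ACTL6A lay at 4 of them, CDH1 being the exception. Over all protein-coding genes the shares were 63.5% for BRG1 and 38.5% for ACTL6A. Of 5 fibroblast and blood markers, BRG1 lay at COL1A1 and COL1A2 and ACTL6A at COL1A1, and DCN, PTPRC and CD3E had no peak at a TSS. The -log10 q of BRG1 at COL1A1 was 25.5, within the range of the epithelial markers, from 9.53 at CDH1 to 52.6 at KRT8. The check therefore does not settle the cell type. Peaks mark binding and not expression, so the levels of the 9 factors in this line are not known from these data.

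Sequences of sites that the results turn on are given first, on the plus strand of GRCh38. Capitals mark matches, on either strand, to the ARE core TGACNNNGC, to the AP-1 motif TGANTCA or to the FOXA motif TATTTAC. At the start of KLF5, the stretch chr13:73058891-73059004 is the part of the NRF2 peak upstream of the MANE Select start, and it held no match. Away from starts, chr13:73090544-73090758 downstream of KLF5 and chr5:150161720-150161884 upstream of CDX1 are the parts of BRG1 peaks shared with ACTL6A, with an AP-1 and a FOXA match in the first. The peak chr18:22223793-22223949 downstream of GATA6 was the highest distal BRG1 peak of that gene, and it held an AP-1 match. Last are the pair of peaks outside the transcript of CDX2, chr13:27953776-27954004 in an exon of LINC00543 and chr13:27960413-27960643 with an ARE core match, from the only cluster of distal BRG1 peaks found near the 9 genes by the rule used.
KLF5 start: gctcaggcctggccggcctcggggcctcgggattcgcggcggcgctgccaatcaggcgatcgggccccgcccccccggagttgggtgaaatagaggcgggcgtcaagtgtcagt
KLF5 downstream: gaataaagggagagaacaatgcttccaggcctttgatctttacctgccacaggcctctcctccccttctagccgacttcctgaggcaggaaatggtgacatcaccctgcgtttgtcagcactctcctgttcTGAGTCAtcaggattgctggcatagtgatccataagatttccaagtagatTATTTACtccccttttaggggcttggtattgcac
CDX1 upstream: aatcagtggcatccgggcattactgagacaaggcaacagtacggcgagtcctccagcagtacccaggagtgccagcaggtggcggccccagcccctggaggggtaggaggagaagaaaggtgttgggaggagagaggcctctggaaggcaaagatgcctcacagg
GATA6 downstream: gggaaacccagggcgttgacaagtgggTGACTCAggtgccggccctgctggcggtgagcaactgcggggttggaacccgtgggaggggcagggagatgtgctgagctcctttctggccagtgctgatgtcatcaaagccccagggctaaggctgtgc
CDX2 LINC00543 exon: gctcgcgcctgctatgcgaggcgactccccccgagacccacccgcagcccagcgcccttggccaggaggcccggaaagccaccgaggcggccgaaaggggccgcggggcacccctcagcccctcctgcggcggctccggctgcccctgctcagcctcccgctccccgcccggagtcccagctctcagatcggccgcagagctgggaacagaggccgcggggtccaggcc
CDX2 downstream: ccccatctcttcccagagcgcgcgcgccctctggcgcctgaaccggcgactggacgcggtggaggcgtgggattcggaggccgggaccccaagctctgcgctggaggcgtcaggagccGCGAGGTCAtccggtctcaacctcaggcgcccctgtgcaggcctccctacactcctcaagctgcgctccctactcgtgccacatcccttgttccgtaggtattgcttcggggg
The GC content of these stretches ran from 48.4% in the KLF5 downstream site to 76.4% in the LINC00543 exon.

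GATA6 and GATA4 are zinc finger factors of the early endoderm and later of the gastric epithelium. GATA6 (chromosome 18, 22169589 to 22202528) had its BRG1 peak at the start, with the summit 150 bp upstream and inside an exon of the divergent lncRNA GATA6-AS1. That peak had 31 fragments (exact Poisson 95% interval 21.1 to 44) where 2.79 were expected, a -log10 q of 18.8 and rank 7044, within the highest 14.4% of the BRG1 list. No ACTL6A or NRF2 peak met it, and the nearest ACTL6A peak began 15.7 kb from the MANE Select start. The same window held 3 more BRG1 peaks, at 7.58 kb (8 fragments), 31.2 kb (5 fragments) and 54.3 kb (11 fragments) downstream of the start, in an intron, in the coding sequence and in an intron of a neighbouring lncRNA. The farthest of these, whose sequence is shown above, was the highest, with a -log10 q of 10.1. GATA6 had 2 ACTL6A peaks of 3 fragments each, the lowest number in that list, and neither met a BRG1 peak. For NRF2 the nearest peak to a GATA6 start was 428 kb away.

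GATA4 (chromosome 8, 11676959 to 11760002) had 13 BRG1 peaks in its window, and 12.4% of all protein-coding genes had as many. Its window of 183 kb was the widest of the 9, and per 100 kb it held 7.10 BRG1 peaks against 0.957 to 4.61 for the others of the 9. The number per 100 kb was not computed over all genes, and these numbers include peaks at starts of neighbouring genes. At the MANE Select start the BRG1 peak had 27 fragments (17.8 to 39.3), a -log10 q of 17.0 and its summit 101 bp upstream, and a low peak of 6 fragments lay at an alternative start 11.5 kb upstream. Neither met an ACTL6A or NRF2 peak. Of the other 11 BRG1 peaks, 3 lay at starts of the neighbours NEIL2, which encodes a DNA glycosylase, and FDFT1, the squalene synthase gene, and 8 were distal, that is with the summit over 1 kb from every protein-coding start.

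The distal sites of GATA4 included the place where BRG1 and ACTL6A came closest together near any of the 9 genes. In an intron 32.3 kb downstream of the start, BRG1 had 19 fragments and a -log10 q of 19.0, ACTL6A had 8 fragments and 6.52, and the summits were 10 bp apart. By -log10 q this BRG1 peak was higher than the one at the start of GATA4, at 17.0. By fragments it was lower, with 19 against 27 at the start, where 0.644 and 2.27 were expected. A lower shared site lay 17.0 kb downstream, with 10 BRG1 and 5 ACTL6A fragments and the summits 334 bp apart. The other 6 distal BRG1 peaks had 4 to 17 fragments and no ACTL6A peak. Of the 7 ACTL6A peaks in the window, 3 lay at the starts of NEIL2 and FDFT1 with BRG1, and the only NRF2 peak (12 fragments) lay at a start of FDFT1, 97.9 kb from the nearest start of GATA4.

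FOXA2 opens chromatin for other factors in the endoderm and its derivatives. On chromosome 20 (22580998 to 22585455) it had the fewest BRG1 peaks of the 9, with 1 peak of 12 fragments (6.20 to 21.0) where 0.910 were expected. Its summit lay 218 bp upstream of the MANE Select start, with a -log10 q of 7.73 and rank 17740 (36.4% of the list). No distal BRG1 peak was found, and 18.6% of all protein-coding genes also had none. An ACTL6A peak of 3 fragments lay 53.2 kb downstream without BRG1, and the nearest NRF2 peak was 520 kb away.

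HNF4A, a nuclear receptor of gut, liver and pancreas epithelium that is transcribed from alternative promoters, had no peak at any of its 9 protein-coding starts. It lies on chromosome 20 from 44355699 to 44432845. The BRG1 peak nearest to any start was 10.6 kb from it. That peak belonged to a pair inside the gene, 33.0 and 34.9 kb downstream of the MANE Select start, with 9 fragments each and -log10 q of 4.94 and 5.20. Nearest to the MANE Select start itself was another BRG1 peak, of 5 fragments, 30.9 kb upstream between genes. ACTL6A came closer to a start of HNF4A than BRG1 did: an intronic peak of 10 fragments (-log10 q 6.07, rank 5274) lay 3.43 kb from the nearest start, with no BRG1 peak on it. The BRG1 peak with the most fragments in the window, 14, and the NRF2 peak, with 15, lay together at the start of FITM2, a neighbour that acts in lipid droplet formation.

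SOX2 on chromosome 3 (181711925 to 181714436) had both its BRG1 peaks at the gene. The lower had 7 fragments (2.81 to 14.4) with its summit 540 bp upstream, in an intron of SOX2-OT, the lncRNA that spans the gene. The higher had 13 fragments (6.92 to 22.2), a -log10 q of 8.93 and its summit in the coding sequence, 1033 bp past the start. ACTL6A had 5 fragments over the same coding sequence, with all 264 bp of its peak inside the BRG1 peak and the summits 141 bp apart. The edge of that ACTL6A peak lay 1004 bp from the start, so a limit of 1 kb left SOX2 just outside the ACTL6A count, and a limit of 3 kb brought the count to 2 genes. Because its edge is within 1 kb of the start and its summit is not, the higher BRG1 peak counts both as a peak at a start and as a distal one. The other ACTL6A peak, 9.83 kb upstream, had 7 fragments and no BRG1, and the nearest NRF2 peak was 722 kb away.

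SOX9 was the gene of the 9 with BRG1 and ACTL6A together at its start. On chromosome 17 (72121020 to 72126416), BRG1 had 35 fragments (24.4 to 48.7) where 2.21 were expected, with the summit 138 bp upstream, a -log10 q of 26.3 and rank 4209 (8.63% of the list). ACTL6A had 12 fragments (6.20 to 21.0) where 0.868 were expected, with a -log10 q of 7.19 and rank 4281 (17.9% of its list), the most fragments of the 20 ACTL6A peaks. The peaks shared 300 bp, the whole BRG1 peak, and their summits were 58 bp apart. A further BRG1 peak of 23 fragments (14.6 to 34.5) lay 711 bp past the start in the coding sequence, with no ACTL6A. NRF2 had no peak there, and its nearest was 73.5 kb away, outside the window. In the introns of overlapping lncRNAs, 23.7 kb upstream and 25.2 kb downstream, 2 distal BRG1 peaks had 5 fragments each.

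KLF5 had the highest BRG1 peak of the 9 genes. On chromosome 13 (73054976 to 73077541), the peak over its MANE Select start had 49 fragments (36.3 to 64.8) where 3.19 were expected, a -log10 q of 36.5 and rank 2229 (4.57% of the list), and its summit lay 107 bp upstream. Among the 12512 genes with BRG1 at a TSS it ranked 1728, within the highest 13.8%. NRF2 had its peak over the same start, with 10 fragments (4.80 to 18.4) where 1.61 were expected, the summit 11 bp upstream and all 329 bp inside the BRG1 peak. This NRF2 peak was low in its list, with a -log10 q of 2.86 and rank 7357 (81.3%). No ACTL6A peak lay there, and the nearest began 31.5 kb from the start.

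At that nearest site, 31.6 kb downstream of the KLF5 start and between genes, BRG1 had 12 fragments and ACTL6A 8, with summits 55 bp apart. The stretch they share, printed above, held the AP-1 match 68 bp and the FOXA match 118 bp from the BRG1 summit. The other distal BRG1 peaks of KLF5 had 16 fragments in an intron 2.77 kb upstream of the MANE Select start and 4 fragments 18.8 kb downstream. A last ACTL6A peak, 62.5 kb downstream, had 3 fragments and no BRG1.

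In order of BRG1 height at the start, the genes ran KLF5, SOX9, GATA6, GATA4, SOX2 and FOXA2, from 49 to 12 fragments. The Poisson intervals of neighbours in this order overlapped, which does not show that they are alike, and the largest step by ratio was from GATA4 with 27 fragments to SOX2 with 13. The intervals of KLF5 and SOX9 lay above those of SOX2 and FOXA2. These intervals cover counting error only, and the spread between libraries is not known.

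CDX1 and CDX2, the homeobox factors of the intestine, had no peak of any antibody at their start. CDX1 (chromosome 5, 150166778 to 150184558) had its nearest BRG1 peak 4.89 kb upstream, with 14 fragments, a -log10 q of 6.89 and rank 19300 (39.6% of the list). ACTL6A had 7 fragments at the same place, sharing 165 bp, with the summits 352 bp apart. The other BRG1 peaks of CDX1, of 7 and 10 fragments, lay 46.6 and 36.7 kb upstream in introns of PDGFRB, a receptor tyrosine kinase gene. NRF2 was 165 kb away.

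CDX2 (chromosome 13, 27960918 to 27969315, on the minus strand) was the only gene of the 9 with a cluster of distal BRG1 peaks. A cluster was at least 3 distal peaks in a chain with gaps of at most 10 kb, and 20.4% of all protein-coding genes had one in their window. The 3 peaks spanned 7.33 kb from the last part of CDX2 outward, with summits 8.27, 8.81 and 15.5 kb downstream of the start. They had 7, 9 and 9 fragments, 25 in all, and -log10 q of 3.60, 5.76 and 6.14. The first lay in the untranslated end of CDX2, the second between genes and the third in an exon of LINC00543, 298 bp from a start of that lncRNA. None met an ACTL6A or NRF2 peak. The peaks at 8.27 and 8.81 kb lay close together, and the minimum of 3 was reached only by counting them apart. Whether they are parts of a single site was not tested. The cluster depended on the settings: 0 of the 9 genes had one with peaks of -log10 q 5 or more, with the highest 5000 peaks, with gaps of at most 5 kb, with 5 peaks required or with starts of any biotype counted, and GATA4 had one as well with gaps of 20 kb or windows of 100 kb. Over the genome, the 34049 distal BRG1 peaks formed 23888 chains, of which 2083 (8.72%) had 3 or more peaks and the longest 41, so the CDX2 chain was among the shortest that counted.

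The CDX2 window also reached PDX1, the homeobox factor of pancreas, duodenum and antrum. All 3 antibodies met at the start of PDX1, with 10 and 11 BRG1 fragments in 2 peaks, 4 of ACTL6A and 12 of NRF2. The BRG1 peak of 11 fragments shared 156 bp with ACTL6A and 467 bp with NRF2. These summits lay 48.4 to 49.3 kb from the CDX2 start. Thus 1 of the 2 ACTL6A peaks and the only NRF2 peak in the CDX2 window belong to the start of another gut factor, and the other ACTL6A peak had 3 fragments and no BRG1.

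**Figure D2:**
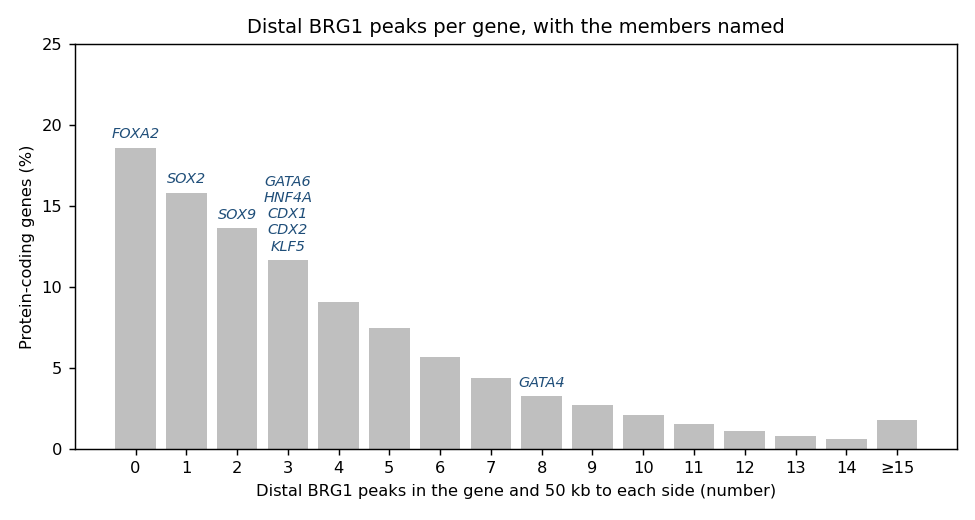
Distal BRG1 peaks in the gene and 50 kb to each side (horizontal axis) against the percent of the 19689 protein-coding genes with that number (bars), with the names of the 9 genes above their bar. GATA4 stands at 8 and the other genes at 0 to 3.

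By number of distal BRG1 peaks, GATA4 had 8, GATA6, HNF4A, CDX1, CDX2 and KLF5 had 3 each, SOX9 had 2, SOX2 had 1 and FOXA2 had 0. Distal refers to protein-coding starts only. With starts of any biotype counted, 21 of the 26 stayed distal. As many as GATA4 were found at 13.8% of all genes, and 3 or more at 52.0%. The median of the 9 was 3.0, equal to that of all genes. The 8 peaks of GATA4 formed 4 chains of 2 peaks and no cluster. Of the 41 BRG1 peaks in the windows, 9 lay at a start of the gene itself, 7 at a start of a neighbour and 25 elsewhere, of which 12 were in introns, 6 between genes, 3 in introns and 1 in an exon of a lncRNA, 2 in UTRs and 1 in coding sequence.

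BRG1 peaks of the 9 genes met ACTL6A about as often as BRG1 peaks in general. Of the 41, 10 overlapped an ACTL6A peak by 1 bp or more (24.4%, with a Wilson 95% interval of 13.8% to 39.3%), against 24.1% of the whole BRG1 list. For distal peaks the share was 5 of 26 (19.2%, 8.51% to 37.9%) against 16.5%. These 5 were the 2 intronic sites of GATA4, the coding sequence of SOX2, the upstream site of CDX1 and the downstream site of KLF5. With NRF2, 4 of the 41 (9.76%, 3.86% to 22.5%) overlapped, against 13.3% of the list, and they lay at the starts of KLF5, FITM2, FDFT1 and PDX1. No distal BRG1 peak of the 26 met NRF2, for which the Wilson upper bound is 12.9%, and the share over all distal BRG1 peaks was 5.01%.

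Seen from ACTL6A, 10 of 20 peaks (50.0%, 29.9% to 70.1%) met BRG1, against 49.8% of its list. The overlap differed with the number of fragments. None of the 6 ACTL6A peaks with 3 fragments met BRG1, against 6.92% of such peaks in the list, and 10 of the 14 with 4 or more did (71.4%, 45.4% to 88.3%), against 58.0%. The peaks of 3 fragments were those of GATA6, the far peaks of KLF5 and FOXA2, and 1 each near HNF4A and CDX2, and such peaks are at the limit of what was called in this library.

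The ACTL6A and NRF2 peaks at the starts of the 9 genes, 1 of each, were set beside genes with a similar BRG1 peak at their start. Of the 12512 genes with BRG1 at a TSS, 58.0% also had ACTL6A and 43.6% NRF2 there. Both shares were larger where BRG1 was higher. Among the 500 genes nearest to KLF5 in BRG1 height, 86.4% (83.1% to 89.1%) had ACTL6A at a start, which KLF5 had not. For GATA6 and GATA4, which had neither, 67.0% and 65.4% of the nearest genes had ACTL6A and 52.0% and 49.6% had NRF2. Around SOX9, with ACTL6A and no NRF2, the shares were 74.4% and 64.8%. Around SOX2 and FOXA2, 40.2% and 36.8% had ACTL6A and 28.0% and 21.6% had NRF2, so at these BRG1 heights starts without ACTL6A and starts without NRF2 were common. The share of genes with neither was not counted. SOX2 counts as without ACTL6A only by the limit of 1 kb. The BRG1 peak that set its height holds a whole ACTL6A peak, whose edge lay 1004 bp from the start. The comparison by height was chosen after the values had been seen, and with 6 genes no test of it was made.

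Sequence motifs of the 9 factors were searched on both strands in the 200 bp centred on each distal BRG1 summit. The words were GATAA for GATA factors, TGTTTAC or TATTTAC for FOXA, CAAAGTCCA or CAAAGGTCA for HNF4, ACAATGG or ACAAAGG for SOX, CCACNCCC for KLF and TTTATNG for CDX, with TGANTCA for AP-1 and TGACNNNGC for the ARE core. A base string can match ACAAAGG and CAAAGGTCA at once, or TGANTCA and TGACNNNGC. Of the 26 distal summits of the 9 genes, 4 held KLF words (15.4%, against 11.4% of all 34049 distal summits), 2 held GATA words (7.69% against 11.3%), 4 held AP-1 words (15.4% against 16.9%) and 3 held the ARE core (11.5% against 12.0%). No summit held a FOXA, HNF4, SOX or CDX word, where 3.69%, 0.399%, 4.72% and 3.74% of all distal summits did. For a count of 0 of 26 the Wilson upper bound is 12.9%, and for each motif the Wilson interval of the 26 summits held the share over all distal summits. A match is a run of letters and not evidence of binding. The GATA words lay at the upstream site of CDX1 and 18.8 kb downstream of KLF5, and the AP-1 words at 2 sites of GATA4 and 1 each of GATA6 and KLF5. Median GC content of the 26 windows was 60.8%, against 58.0% for all distal summits.

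Beside 24 other transcription factors of the gut, the 9 genes had BRG1 at a start about as often. BRG1 lay at a start of 13 of the 24, ACTL6A at 7 and NRF2 at 3, and 10 had none. Over all protein-coding genes the shares were 63.5% for BRG1, 38.5% for ACTL6A and 28.1% for NRF2. All 3 antibodies had a peak at a start of FOXA3, PDX1 and KLF4, which happened at none of the 9. Whether these peaks overlapped is given here for PDX1 only. Of 16 factors of nerve, muscle, heart, blood and pigment cells, BRG1 lay at a start of 5, ACTL6A of 1 and NRF2 of 0, and 11 had none. The shares of all genes with all 3 antibodies or with none at a start were not counted. Differences between these short lists were not tested. Clusters of distal BRG1 peaks were found at 6 of the 24 and 4 of the 16, and the median number of distal BRG1 peaks was 3.0 and 2.5. PDX1 was 1 of these 6, and its cluster is the cluster of CDX2, since the windows of the neighbouring genes overlap. The counts for the 24 and the 9 genes are therefore not independent. Of all protein-coding genes, 20.4% had a cluster, and the median number was 3.0. The numbers of distal peaks overlapped, from 0 to 9 in the 24 gut factors, from 0 to 11 in the 16 factors of other lineages and from 0 to 8 in the 9 genes.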

How the data were processed

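CUT&Tag peak lists of 5 libraries of SNU638 cells were used as deposited. The authors sequenced paired reads of 150 bp, aligned them with BWA and ran MACS2 with a q-value threshold of 0.05; per the submitters' processing notes the build was hg38, and fastp 0.23.0, FastQC, deepTools and HOMER 4.11 were also named. Which control was given to the caller is not given in the sources used here. Each deposited peak has a score of 10 times the -log10 q-value for nearly all peaks, a fold enrichment (a ratio to the expected fragments with a pseudocount of 1 on both), the -log10 p and -log10 q-value, and the offset of the summit. The lists hold no reads, so library totals were not used.

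Whole fragment numbers at each summit were solved from the fold enrichment so that the -log10 Poisson p matched within 0.001, which succeeded for 99.1% to 100% of the peaks of each list. The 9 genes with 50 kb to each side were set against GENCODE release 44 on GRCh38. A peak was at a TSS when its edge came within 1 kb of a protein-coding start, and distal when its summit was over 1 kb from all of them. Peaks overlapped when they shared 1 bp. Shares have Wilson and counts exact Poisson 95% intervals for counting error alone, as if peaks were independent. Sequences come from the hg38 reference, and 1 sequence is not reported here.

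The genes and lists were chosen with earlier results of these data known. All 9 genes were described, with the highest peak of each antibody in each window, every cluster, neighbours with a named peak at their start, and genes of the other lists with all 3 antibodies at a start. The comparison with the 500 genes nearest in BRG1 height was added after values had been seen. Counts were repeated with peaks of -log10 q 5 or more, with the highest 5000 peaks, without peaks that met IgG, and with other windows, TSS distances, gaps, overlaps and motif windows. The routines were tested on simulated data, where 100% of planted chains and motifs were found and 0 of 32 windows of 1 repeated base were called. The tools were pysam 0.24.0, pandas 2.3.3, matplotlib 3.10.9, SciPy 1.17.1 and NumPy 2.4.6 under Python 3.11.15.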

Additional observations from a re-analysis of the deposited data

How the results depend on the processing

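Of 104 alternatives to 18 results, 76 left the value within its error or within 1.5 times, and 28 did not. The 30 that dropped peaks shared with an IgG library, either or both, moved 0 results; without IgG 1 or without IgG 2 each count was as in the report, because no IgG peak lay in any window. With a -log10 q of at least 5, the windows held 6 ACTL6A, 24 BRG1 and 1 NRF2 peaks, distal BRG1 peaks fell to 11, NRF2 lay at 0 of the 9 starts and 0 genes had a cluster. With the highest 5000 peaks of each list, the windows held 3 ACTL6A, 2 BRG1 and 1 NRF2 peaks and 0 distal BRG1 peaks, BRG1 lay at 2 starts (KLF5 and SOX9), NRF2 at 0, 0 genes had a cluster, and of the 2 BRG1 peaks 50.0% met ACTL6A and 0% NRF2. With 10 kb to each side, the windows held 9 ACTL6A, 26 BRG1 and 1 NRF2 peaks and 17 distal BRG1 peaks, and 3.85% of BRG1 peaks met NRF2. A TSS distance of 3 kb gave 2 genes with ACTL6A, SOX2 being added. The cluster at CDX2 was lost with gaps of at most 5 kb, with at least 5 peaks, and with starts of any biotype counted (0 genes each), and with gaps of 20 kb or windows of 100 kb 2 genes, GATA4 and CDX2, had one. With an overlap of 50% of both peaks, 12.2% of BRG1 peaks met ACTL6A. In 100 bp at the summit, AP-1 words were in 3.85% of distal summits. Fewer peaks or a narrower limit give these lower counts by construction.

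No paired analysis was possible because there was only 1 library per antibody and the counts come from no test. Depth limits what an empty place means: reads were not used here, so fragments below the threshold of the caller are not seen, and the ACTL6A peaks near the 9 genes had 3 to 12 fragments.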
